A study of Homo sapiens with 28 samples.

Results

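UCN2 and UCN, the genes of urocortin 2 and urocortin 1, were followed in 16 RNA-Seq libraries of prostate cancer cells as 2 of the 19662 gene symbols measured. UCN2 was selected on these data: its RPKM (reads scaled to gene length and to the mapped reads of the library) in PC3 cells with each ONECUT2 siRNA, in hypoxia and against LNCaP cells chose it, so all UCN2 levels are given as a description with no test. UCN is its paralog. PC3, a prostate cancer line with neuroendocrine features, received control siRNA (siCtrl) or siRNA against the transcription factor ONECUT2 (siOC2), and LNCaP, a prostate adenocarcinoma line, carried an empty vector or a vector for Flag-tagged ONECUT2 (Flag-OC2). Both lines were kept in normoxia or in a chamber at 0.2% oxygen, which gives 4 groups of 2 libraries per line. Replicate 1 of siOC2 got siRNA1 and replicate 2 got siRNA2, and their spread holds that between the siRNAs. Each line is a single established culture model, and no label says that replicates were separate cultures, so tests measure only the spread between these libraries.

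Urocortins are secreted peptides of the corticotropin-releasing factor (CRF) family, which also holds CRH and urocortin 3 (UCN3). They are cut from precursors, many peptides of this kind are then amidated, and they act through 2 receptors, CRHR1 and CRHR2, that couple to the stimulatory G protein and raise cAMP. Urocortin 1 binds both receptors and the binding protein CRHBP, while urocortin 2 is selective for CRHR2. In the body they are known for roles in stress, blood vessels and heart muscle.

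UCN2 lies on the minus strand of chromosome 3 (chr3:48599151-48601214, GRCh37) and UCN on the minus strand of chromosome 2 (chr2:27530268-27531313). Each has 1 annotated transcript of 2 exons. The 250 bases before each start (RefSeq promoter table of GRCh38.p14, found as 1 exact match each in GRCh37 at chr3:48601215-48601464 and chr2:27531314-27531563) are shown because hypoxia and a transcription factor were varied here. Capitals mark the matches to the words searched on both strands.
UCN2: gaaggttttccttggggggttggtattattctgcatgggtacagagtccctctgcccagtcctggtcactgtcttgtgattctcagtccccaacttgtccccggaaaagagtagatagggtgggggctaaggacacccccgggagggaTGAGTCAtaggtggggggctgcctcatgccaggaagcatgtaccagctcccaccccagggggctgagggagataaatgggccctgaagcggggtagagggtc
UCN: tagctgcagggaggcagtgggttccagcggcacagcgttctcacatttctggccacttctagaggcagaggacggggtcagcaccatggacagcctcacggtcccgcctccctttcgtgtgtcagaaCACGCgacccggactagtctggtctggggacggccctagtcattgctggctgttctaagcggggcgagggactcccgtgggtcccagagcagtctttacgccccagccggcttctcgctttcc
The UCN2 stretch holds the AP-1 word TGANTCA as TGAGTCA, from 102 bases before the start, a word found in 6.57% of 35116 promoter stretches of this length. The HIF core words ACGTG and GCGTG, found in 43.2% of promoters, have no match in UCN2 and 1 match in UCN, from 123 bases before the start on the opposite strand. Neither stretch holds an ONECUT core word (ATTGAT or ATCGAT, in 6.19% of promoters), the CRE word TGACGTCA (1.65%) or the SMAD word GTCTAGAC (0.182%). A match is a stretch of letters and was not tested for binding.

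The libraries matched their labels in most respects. In PC3 cells ONECUT2 was at 1.77 and 1.16 RPKM with siCtrl and 0.276 and 0.204 with siOC2 in normoxia, and at 0.648 and 0.550 with siCtrl and 0.125 and 0.214 with siOC2 in hypoxia, so the groups did not overlap at either oxygen level. In LNCaP cells with empty vector it was at 2.89 and 7.86 RPKM in normoxia and 11.5 and 3.09 in hypoxia, and it has no value in the Flag-OC2 libraries, so its overexpression could not be checked. KLK3, the PSA gene, was at 1840 to 4000 RPKM in LNCaP cells and listed at 0 in all 8 PC3 libraries. CD44 marked PC3 cells (171 to 661 RPKM, against at most 0.748 in LNCaP), while VIM overlapped between the lines (30.2 to 353 RPKM in PC3, 23.6 to 58.2 in LNCaP) and KRT5 stayed at or below 0.527 in both. Of the neuroendocrine markers, CHGA was at most 0.284 and SYP at most 1.77 RPKM in either line, ENO2 ran from 19.7 to 113 in PC3 and 5.16 to 80.5 in LNCaP, and NCAM1 from 1.30 to 15.2 in PC3 and 0.179 to 1.56 in LNCaP. All 6 hypoxia genes listed (CA9, VEGFA, NDRG1, PDK1, BNIP3, PFKFB4) were higher in both hypoxic than in both normoxic control libraries of each line, by 1.44 to 71.8 times in PC3 and 3.31 to 9.32 times in LNCaP cells. Markers of leukocytes and fibroblasts, which a line should not hold, were mixed. PTPRC was at most 0.0635 RPKM, DCN at most 0.156 and LUM at most 1.34 in either line. CD68 ran from 25.9 to 57.2 RPKM in PC3 and 21.1 to 36.5 in LNCaP, and COL1A1 from 2.03 to 4.74 and 7.57 to 25.9. Relative depth ran from 0.348 to 1.15 within the PC3 table and 0.548 to 1.00 within the LNCaP table.

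UCN2 was high in control PC3 cells, highest in hypoxia, and low with either ONECUT2 siRNA and in LNCaP cells. In normoxia it was at 3.39 and 4.22 RPKM with siCtrl, 0.390 with siRNA1 and 0.790 with siRNA2. Both siOC2 libraries lay below both siCtrl libraries, and the lowest siCtrl value was 4.29 times the highest siOC2 value. The siCtrl mean of 3.81 ± 0.592 RPKM (SD, n = 2) was 9.75 times the siRNA1 and 4.82 times the siRNA2 value. In hypoxia UCN2 was at 27.2 and 24.1 RPKM with siCtrl, 0.862 with siRNA1 and 2.1 with siRNA2. The groups were again apart, by 11.4 times between the nearest libraries, and the siCtrl mean of 25.6 ± 2.23 RPKM (SD, n = 2) was 29.7 times the siRNA1 and 12.2 times the siRNA2 value. The siRNA1 library was the lower in both oxygen levels, with siRNA2 at 2.02 and 2.44 times its value. Bulk RNA cannot tell fewer UCN2-expressing cells from less UCN2 RNA per cell.

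Hypoxia and the siRNAs were set beside each other in the same libraries. With siCtrl, UCN2 was 6.74 times higher in hypoxia than in normoxia, without overlap. The hypoxic value was also the higher with each siRNA, 2.21 times with siRNA1 and 2.66 times with siRNA2, but both hypoxic siOC2 libraries lay below the lowest normoxic siCtrl library. On the log2(RPKM + 0.1) scale the difference of siCtrl and siOC2 means was 2.56 in normoxia and 4.14 in hypoxia, and that of hypoxia and normoxia with siCtrl was 2.73. By size these were the 19th, 4th and 45th highest of 12214 genes, as a description of a gene picked for them. The siCtrl hypoxia libraries enter both the last values and the siCtrl normoxia libraries the first and the last. These values are therefore not independent.

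**Figure D1:**
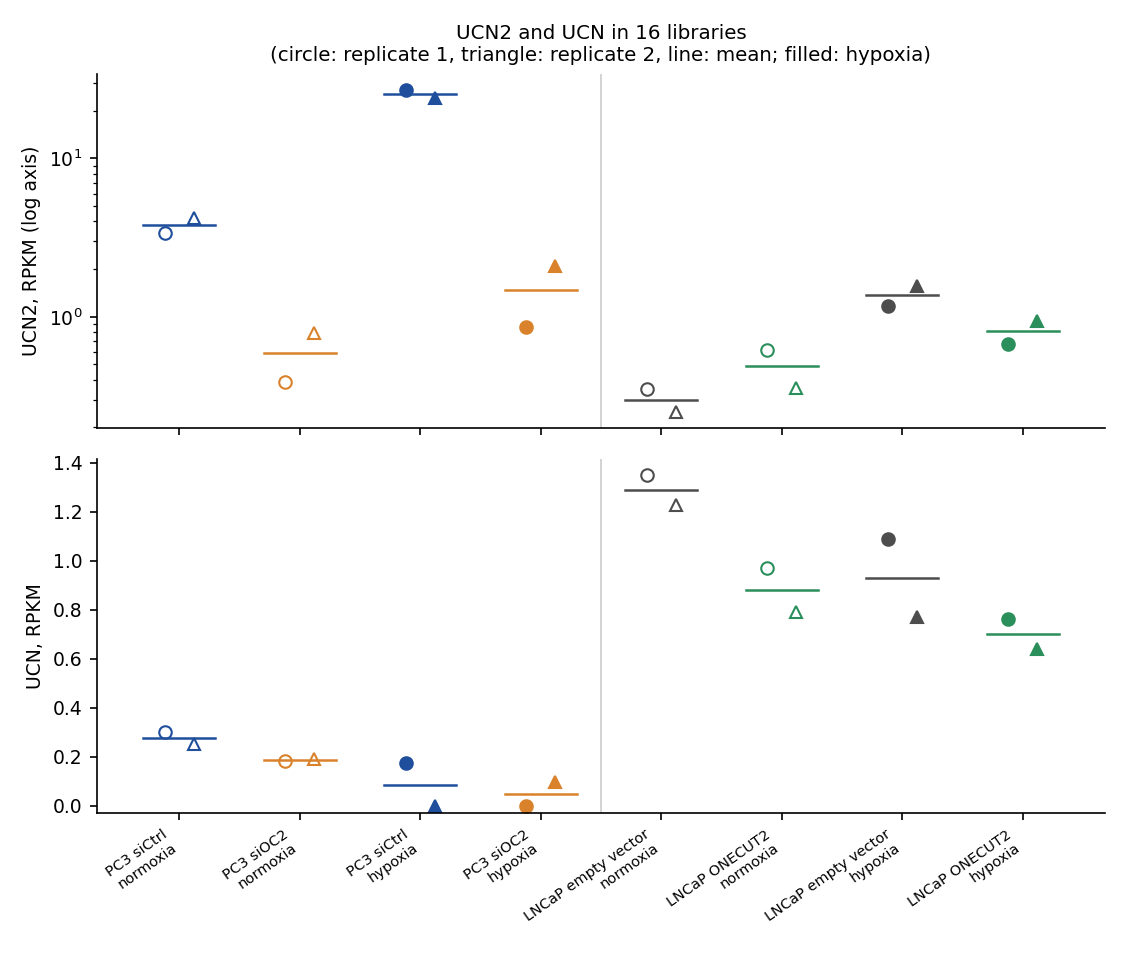
RPKM of UCN2 (top, log axis) and UCN (bottom, linear axis) in the 8 groups. Each point is a library (circle, replicate 1; triangle, replicate 2), lines are means of 2, and filled points are hypoxia. UCN2 reached 27.2 and 24.1 RPKM in siCtrl PC3 cells in hypoxia, and UCN was higher in every LNCaP than in any PC3 library.

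In LNCaP cells UCN2 was low in normoxia and moved less. With empty vector it was at 0.348 and 0.252 RPKM in normoxia and 1.17 and 1.57 in hypoxia, so the groups did not overlap and their means differed by 4.57 times. With Flag-OC2 it was at 0.620 and 0.353 RPKM in normoxia and 0.677 and 0.947 in hypoxia, a difference of means of 1.67 times. Flag-OC2 libraries were above empty vector libraries in normoxia, where the nearest values were 0.353 and 0.348, and below them in hypoxia. The log2 differences of Flag-OC2 over empty vector were 0.53 in normoxia and -0.69 in hypoxia, and the first was 0.19 without Flag-OC2 replicate 1 and 0.86 without Flag-OC2 replicate 2. UCN2 passed the limit of 1 RPKM in 2 LNCaP libraries only through the empty vector libraries in hypoxia.

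The tables of the lines differ in scale, with an upper quartile (75% point of the values above 0) of 13.9 to 16.3 RPKM in PC3 and 24.9 to 28.9 in LNCaP, so levels are set side by side. The mean UCN2 RPKM with siCtrl was 12.7 times that with empty vector in normoxia and 18.7 times in hypoxia. As a share of the upper quartile of its own library, UCN2 was at 22.2% and 26.6% with siCtrl in normoxia and 168% and 159% in hypoxia, against 1.26% and 0.935%, then 4.03% and 5.44%, with empty vector. Ranked among all genes of a library, UCN2 stood above 85.9% and 86.2% of them with siCtrl in hypoxia and above 41.6% and 43.5% with empty vector in hypoxia. With siOC2 in hypoxia its share of the upper quartile was 6.22% and 13.1%. On the tables' own scales, which differ, empty vector LNCaP libraries held more ONECUT2 RPKM than any siCtrl PC3 library. The nearest were 2.89 RPKM, in a library with an upper quartile of 27.6, and 1.77 RPKM, in 1 with 15.3. As a share of the upper quartile, not every empty vector library stood above every siCtrl library. Within PC3, siCtrl libraries held less ONECUT2 in hypoxia than in normoxia, while UCN2 was higher.

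UCN, which was tested where it passed the filter of 1 RPKM in 2 libraries, was higher in every LNCaP than in any PC3 library, also as a share of the upper quartile of its library (2.32% or more against 1.97% or less). In PC3 cells it was at 0.302 and 0.252 RPKM with siCtrl and 0.183 and 0.191 with siOC2 in normoxia. In hypoxia it was at 0.173 and 0 with siCtrl and 0 and 0.0954 with siOC2. Scaled by relative depth, these values equal 0 to 6 whole steps, each taken as 1 read. UCN did not pass the filter in PC3 cells and was not tested there. Both siCtrl values lay above both siOC2 values in normoxia, but values this low do not show whether the level differed. In LNCaP cells UCN was at 1.35 and 1.23 RPKM with empty vector and 0.972 and 0.790 with Flag-OC2 in normoxia, and at 1.09 and 0.770 with empty vector and 0.763 and 0.639 with Flag-OC2 in hypoxia, or 14 to 44 read steps. All Flag-OC2 libraries lay below the empty vector libraries of the same oxygen level, by as little as 0.763 against 0.770 RPKM in hypoxia. The share of all genes that separate in this way is not given here.

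None of the UCN differences in LNCaP cells passed the test. UCN reached the filter only through 3 empty vector libraries, so the direction of less RNA with Flag-OC2 was favoured by its being tested. The log2 fold change of Flag-OC2 over empty vector was -0.51 in normoxia (SE 0.26, limma adjusted p = 0.268) and -0.35 in hypoxia (SE 0.26, limma adjusted p = 0.423). Hypoxia over normoxia with empty vector gave -0.45 (SE 0.26, limma adjusted p = 0.212). The difference of the Flag-OC2 effect between oxygen levels was 0.16 (SE 0.37, limma adjusted p = 0.861). Hypoxia over normoxia in empty vector cells was thus 1.88 for UCN2 and -0.45 for UCN on the log2 scale, a difference between the genes that was not tested.

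The 3' end of UCN2 overlaps PFKFB4, a glycolysis regulator gene induced by hypoxia, on the same strand, and COL7A1, the type VII collagen gene, ends 292 bases before the UCN2 start. In the GENCODE v44 annotation lifted to GRCh37, 2 of 15 PFKFB4 transcripts share 298 exon bases with UCN2, which is 19.9% of its 1498 exon bases, so reads there could be given to either gene.

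**Figure D2:**
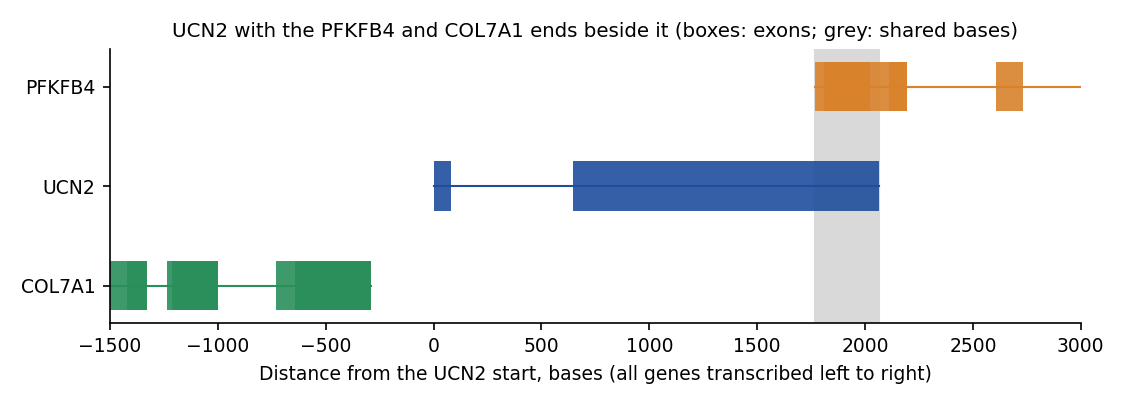
Exons (boxes) of COL7A1, UCN2 and PFKFB4 by distance in bases from the UCN2 start, in the direction of transcription. The grey band is the 298 bases shared by UCN2 and PFKFB4, and the gap of 292 bases separates COL7A1 from UCN2.

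PFKFB4 rose in hypoxia in both lines and was not called between siCtrl and siOC2. In PC3 cells it was at 13.6 and 13.6 RPKM with siCtrl and 15.5 and 12.3 with siOC2 in normoxia, and at 91.1 and 76.0 with siCtrl and 58.2 and 58.3 with siOC2 in hypoxia. The siCtrl and siOC2 values overlapped in normoxia and were 1.43 times apart in means in hypoxia, with a log2 fold change of 0.51 (SE 0.25, limma adjusted p = 0.462). Hypoxia over normoxia with siCtrl was 6.13 times in PFKFB4, with a log2 fold change of 2.60 (SE 0.25, limma adjusted p = 0.00621), beside the 6.74 times in UCN2. As a share of the PFKFB4 RPKM, UCN2 was at 24.8% to 31.7% in the 4 siCtrl libraries and 1.48% to 6.42% in the 4 siOC2 libraries. In LNCaP cells it was at 3.15% to 15.4% in normoxia and 1.00% to 2.21% in hypoxia, while PFKFB4 with empty vector was 9.32 times higher in hypoxia (log2 fold change 3.20, SE 0.22, limma adjusted p = 5.27e-05). The part of PFKFB4 reads in the UCN2 values was not tested.

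COL7A1 was at 2.4 and 2.48 RPKM with siCtrl, 0.655 with siRNA1 and 2.38 with siRNA2 in normoxia, and at 4.88 and 4.15 with siCtrl, 0.781 with siRNA1 and 2.07 with siRNA2 in hypoxia. Both siOC2 libraries were lower than both siCtrl libraries at each oxygen level, siRNA1 much more so in normoxia. It was the 1 of 8 tested neighbours of UCN2 called between siCtrl and siOC2 in hypoxia, with a log2 fold change of 1.73 (SE 0.63, limma adjusted p = 0.317), and none was called in normoxia. Over all genes, 3.95% of 12214 were called higher with siCtrl in hypoxia and 1.59% in normoxia (fold change over 2 and unadjusted P under 0.05). In LNCaP cells COL7A1 ran from 12.2 to 31.3 RPKM, above every PC3 library, while UCN2 was low there. Beside UCN, TRIM54 shares 40 bases on the opposite strand and ran from 0 to 1.21 RPKM, and the only one of 9 tested neighbours called in LNCaP cells was the zinc transporter gene SLC30A3, higher with Flag-OC2 by 1.57 in normoxia (SE 0.43, limma adjusted p = 0.0740) and 1.90 in hypoxia (SE 0.43, limma adjusted p = 0.0278) on the log2 scale, where 2.81% and 3.70% of all genes were called higher. SLC30A3 reached 1 RPKM only in the Flag-OC2 libraries of hypoxia.

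The other ligands and the binding protein of the family were close to 0. CRH was at most 0.0162 RPKM in PC3 and listed at 0 in all LNCaP libraries, UCN3 at most 0.0283 and 0.0303, and CRHBP at 0 in PC3 and at most 0.124 in LNCaP. Of the receptors, CRHR2, the receptor of urocortin 2, was at most 0.0491 RPKM in PC3 and 0.234 in LNCaP cells, in a Flag-OC2 library in hypoxia. CRHR1 was at most 0.171 RPKM in PC3 cells. UCN2 was therefore the only CRF family member above 1 RPKM in PC3 cells.

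CRHR1 rose with Flag-OC2 in hypoxic LNCaP cells. It was at 0.0187 and 0.0284 RPKM with empty vector and 0.254 and 0.0920 with Flag-OC2 in normoxia, and at 0.217 and 0.0932 with empty vector and 3.13 and 1.83 with Flag-OC2 in hypoxia. The last pair stood above the other 6 libraries, and the gene passed the filter through that pair alone, so that a difference was built into its being tested. The log2 fold change of Flag-OC2 over empty vector was 3.33 in hypoxia (SE 0.48, limma adjusted p = 0.00509), where 3.70% of 12283 genes were called higher and 0.773% lower, and 1.08 in normoxia (SE 0.48, limma adjusted p = 0.211). The difference of these effects was 2.26 (SE 0.67, limma adjusted p = 0.172), which does not pass after adjustment. By unadjusted P, 2.34% of all genes had a positive and 1.35% a negative difference of this kind. UCN2 and UCN were both lower with Flag-OC2 in those libraries. In PC3 cells the deposited CRHR1 values fall as low as 1.18e-128 and 2.88e-139 RPKM with siCtrl in normoxia, which is not the size of whole reads scaled to length. The deposited RPKM were computed by Cufflinks 2.1.1. How reads were assigned at this gene is not given in the sources used here, so its levels and fold changes are uncertain.

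The cAMP genes of the list (28, of which 23 were tested in PC3 and 24 in LNCaP cells) were mostly not called. Between siCtrl and siOC2, 2 of 23 were called lower with siCtrl in normoxia and the same 2 in hypoxia, ADCY5 and CREM, where 3.62% and 3.55% of all genes were called lower, and the list medians were -0.13 and -0.02 beside -0.13 and 0.03 over all genes. ADCY5, an adenylyl cyclase, was at 0.165 and 0.594 RPKM with siCtrl and 1.55 and 1.86 with siOC2 in normoxia, and at 0.254 and 0.239 against 0.557 and 1.99 in hypoxia. The groups did not overlap, and siCtrl over siOC2 gave log2 fold changes of -2.07 (SE 0.76, limma adjusted p = 0.451) and -1.76 (SE 0.76, limma adjusted p = 0.408). ADCY5 reached 1 RPKM in PC3 cells only in siOC2 libraries, so the direction of its call was built into its being tested. CREM, a cAMP-responsive transcription factor, was at 98.3 and 101 RPKM with siCtrl and 211 and 209 with siOC2 in normoxia, and at 119 and 99.7 against 238 and 243 in hypoxia. The replicates lay close together, and the log2 fold changes were -1.08 (SE 0.22, limma adjusted p = 0.185) and -1.14 (SE 0.22, limma adjusted p = 0.0891).

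ADCY5 was also called in LNCaP cells, in the direction of more RNA with Flag-OC2. It was at 0.164 and 0.372 RPKM with empty vector and 0.622 and 1.16 with Flag-OC2 in normoxia, and at 0.187 and 0.309 against 1.59 and 1.65 in hypoxia. The groups did not overlap, with log2 fold changes of 1.43 (SE 0.41, limma adjusted p = 0.0811) and 2.33 (SE 0.41, limma adjusted p = 0.0116). It was the only gene of 24 called higher in normoxia, where 2.81% of all genes were. ADCY7 (log2 fold change 1.16, SE 0.32, limma adjusted p = 0.0549) was called beside it in hypoxia, where 3.70% were. In hypoxia against normoxia, none of 23 was called with siCtrl, where 2.23% of all genes were called higher and 1.63% lower. With empty vector the phosphodiesterase gene PDE4C (1.56) and CREB1 (1.02) rose and ADCY7 fell by 1.06 on the log2 scale, each with a limma adjusted p under 0.05. With empty vector 5.60% of all genes were called higher and 2.34% lower. PDE4C reached 1 RPKM in LNCaP cells only in hypoxia and was tested through the groups where it is high. ADCY5 reached 1 RPKM in LNCaP cells only in Flag-OC2 libraries, so this direction too was built into its being tested.

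**Figure D3:**
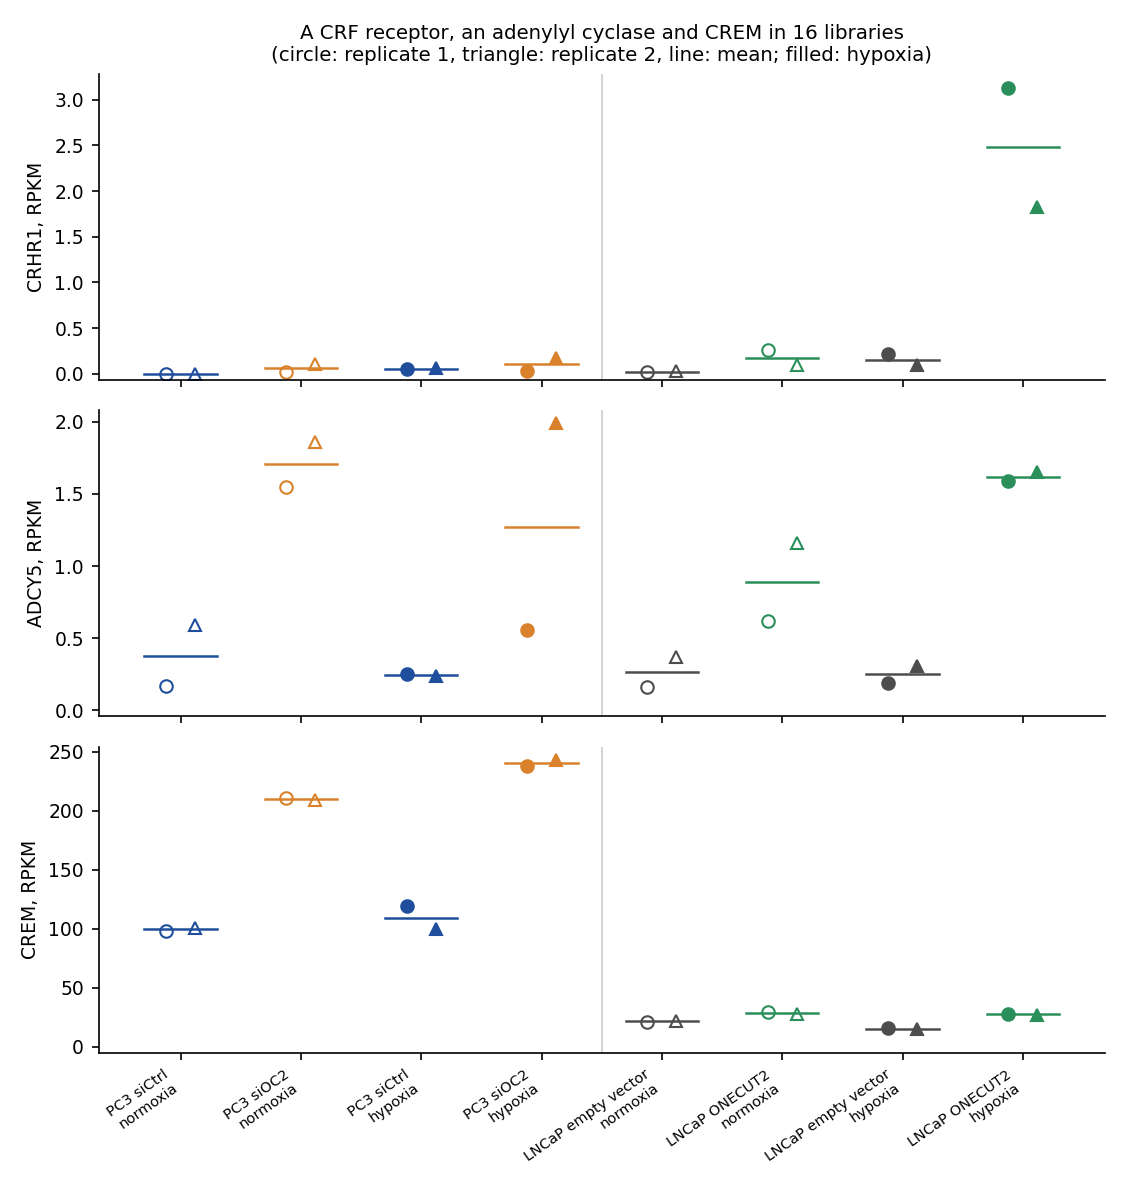
RPKM (linear axes) of CRHR1, ADCY5 and CREM in the 8 groups, with 1 point per library, means of 2 as lines and filled points for hypoxia. CRHR1 left the baseline only in LNCaP cells with Flag-OC2 in hypoxia (3.13 and 1.83 RPKM), and CREM was at 209 RPKM or more in all 4 siOC2 libraries.

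Genes known to respond to cAMP were called in both lines. In PC3 cells 2 of 6 tested had less RNA with siCtrl than with siOC2 at each oxygen level, beside 3.62% and 3.55% of all genes: JUNB (log2 fold change -1.43, SE 0.35, limma adjusted p = 0.237) and NR4A1 (-1.04, SE 0.36, adjusted p = 0.420) in normoxia, and JUNB (-1.17, SE 0.35, adjusted p = 0.237) and PER1 (-1.13, SE 0.34, adjusted p = 0.238) in hypoxia. None of the 6 was called in hypoxia against normoxia with siCtrl, the comparison in which UCN2 was 6.74 times higher. Of all genes, 2.23% were called higher and 1.63% lower in that comparison. In LNCaP cells with empty vector 4 of 7 were called higher in hypoxia, where 5.60% of all genes were, and 1 lower, where 2.34% were. PER1, a clock gene, was at 11.8 and 16.1 RPKM in normoxia and 57.8 and 56.7 in hypoxia, without overlap (log2 fold change 2.05, SE 0.15, limma adjusted p = 8.93e-05). FOS (1.49), NR4A1 (1.18) and DUSP1 (1.16) also rose, and PPARGC1A, a coactivator of mitochondrial genes, fell by 1.83 on the log2 scale, all with a limma adjusted p under 0.05. With Flag-OC2, NR4A2 (1.24, limma adjusted p = 0.0276) and PPARGC1A (1.37, limma adjusted p = 0.0517) were called higher in hypoxia, and FOS (1.40, limma adjusted p = 0.0648) in normoxia. Of all genes, 3.70% were called higher with Flag-OC2 in hypoxia and 2.81% in normoxia. NR4A2 reached 1 RPKM in LNCaP cells only in the Flag-OC2 libraries of hypoxia.

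Of the enzymes and helpers of precursor maturation, 1 of 8 tested was called in each of the 3 PC3 comparisons. The call was lower with siCtrl in normoxia, higher with siCtrl in hypoxia and higher in hypoxia than in normoxia with siCtrl. Of all genes, 3.62%, 3.95% and 2.23% were called in those directions. None was called in the PC3 difference between oxygen levels. In LNCaP cells the only call was the difference of the Flag-OC2 effect between oxygen levels for PCSK1N, an inhibitor of a prohormone convertase (1.13, SE 0.37, limma adjusted p = 0.199). A positive difference of this kind was called for 2.34% of all genes. PAM, which amidates peptides, was at 40.1 and 39.9 RPKM in normoxia and 108 and 88.8 in hypoxia with siCtrl, without overlap (log2 fold change 1.29, SE 0.28, limma adjusted p = 0.170). CPD, a carboxypeptidase, was at 18.0 and 19.8 RPKM with siCtrl and 6.93 and 10.9 with siOC2 in hypoxia (log2 fold change 1.11, SE 0.31, limma adjusted p = 0.208). SCG5, a chaperone of a prohormone convertase, was at 0.394 and 0.612 RPKM with siCtrl and 5.0 and 1.07 with siOC2 in normoxia (log2 fold change -2.05, SE 0.88, limma adjusted p = 0.537), and siRNA1 made up most of that difference. SCG5 reached 1 RPKM only in siOC2 libraries, so it too was tested through the group where it is high.

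Among 41 other secreted peptide precursors, 13 were tested in PC3 and 12 in LNCaP cells. With siCtrl, 4 of 13 rose in hypoxia, 2 of them also by the adjusted p, and none fell, where 2.23% of all genes were called higher and 1.63% lower, and the median of the list was 0.27 beside -0.07 over all genes. ADM, the precursor of the vasodilator adrenomedullin, was at 2.36 and 2.11 RPKM in normoxia and 50.1 and 47.1 in hypoxia (log2 fold change 4.38, SE 0.41, limma adjusted p = 0.00531). STC1, stanniocalcin 1, was at 8.99 and 9.87 RPKM in normoxia and 81.6 and 67.2 in hypoxia (2.96, SE 0.34, limma adjusted p = 0.0126). STC2 (1.51, limma adjusted p = 0.105) and the apelin gene APLN (1.46, limma adjusted p = 0.192) followed. The UCN2 difference of 2.73, which was not tested, lay between those of STC1 and STC2.

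With the siRNAs the precursors that were called differed from UCN2 in direction. In normoxia 5 of 13 were called, all lower with siCtrl than with siOC2, and in hypoxia 2, again lower with siCtrl, where 3.62% and 3.55% of all genes were. The list medians were -0.84 and -0.18, beside -0.13 and 0.03 over all genes. ADM and APLN, which were not called, lay in the direction of UCN2 in hypoxia. ADM was at 50.1 and 47.1 RPKM with siCtrl against 29.5 and 30.2 with siOC2 (log2 fold change 0.70, SE 0.41, limma adjusted p = 0.536). APLN was at 8.91 and 9.01 against 3.99 and 6.39 (0.81, SE 0.33, limma adjusted p = 0.366). The paper reports ADM among genes raised by ONECUT2 in hypoxic PC3 cells, also by RT-qPCR. NPY, neuropeptide Y, was at 1.25 and 0.825 RPKM with siCtrl and 5.74 and 14.0 with siOC2 in normoxia, and at 1.06 and 0.852 against 3.36 and 13.7 in hypoxia (log2 fold changes -3.02 and -2.71, SE 0.67, limma adjusted p = 0.192 and 0.160). EDN1, the endothelin 1 gene, was at 2.04 and 1.87 RPKM with siCtrl and 12.1 and 8.56 with siOC2 in normoxia, and at 2.25 and 2.52 against 18.1 and 11.3 in hypoxia (-2.32 and -2.54, SE 0.34, limma adjusted p = 0.103 and 0.0502). KISS1 (-2.88), STC1 (-1.44) and STC2 (-1.23) were the other 3 in normoxia, and KISS1 reached 1 RPKM only in siOC2 libraries, so it was tested through the group where it is high. ADM and STC1 had a difference of the siCtrl over siOC2 effect between hypoxia and normoxia (1.54 and 1.62, limma adjusted p = 1.0 each), where 0.696% of all genes were called with a positive and 0.246% with a negative difference. Of the 56 list genes tested, only ONECUT2 was called higher with siCtrl in normoxia and only CPD in hypoxia. Of all genes, 1.59% and 3.95% were called higher there. UCN2 lay in this direction, for which it was picked.

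**Figure D4:**
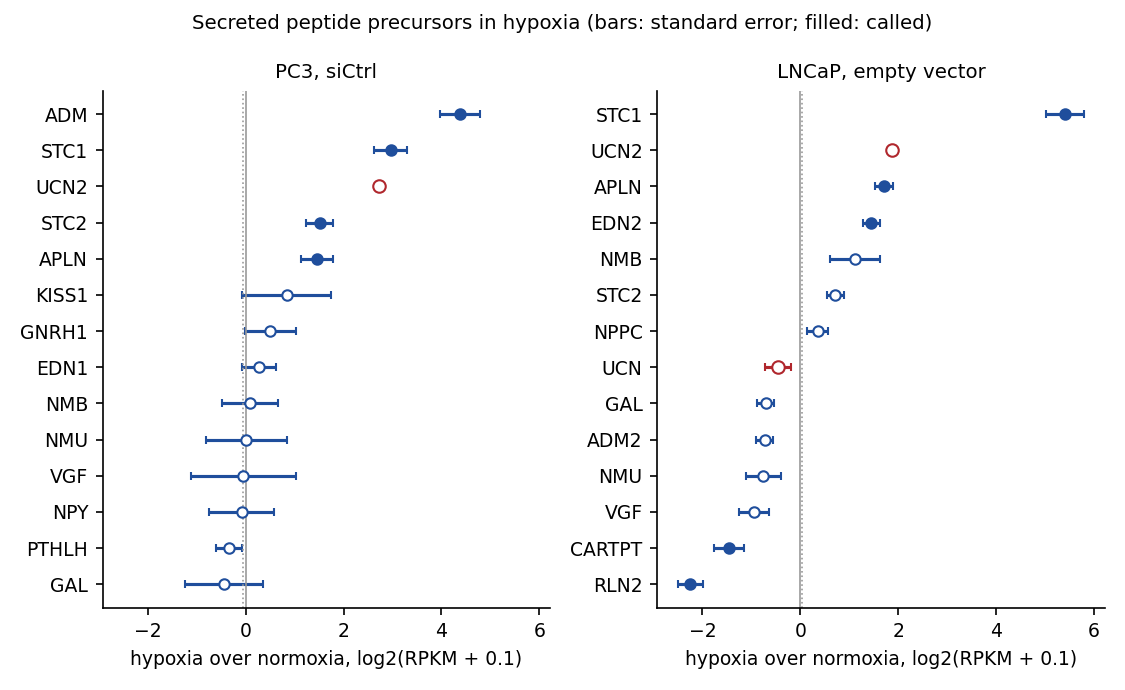
Log2 difference of hypoxia over normoxia in siCtrl PC3 (left) and empty vector LNCaP cells (right) for the urocortins (red) and the tested secreted peptide precursors. Bars are standard errors, filled points passed the call, UCN2 has no bar because it was not tested, and dotted lines are the medians of all genes. UCN2 lies at 2.73 in PC3 and 1.88 in LNCaP cells, and UCN at -0.45 in LNCaP cells.

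In LNCaP cells with empty vector 3 of 12 precursors rose in hypoxia and 2 fell, where 5.60% and 2.34% of all genes did. STC1 was at 0.864 and 0.758 RPKM in normoxia and 39.6 and 37.7 in hypoxia (log2 fold change 5.41, SE 0.39, limma adjusted p = 7.56e-05). APLN (1.71) and EDN2 (1.45) rose, and RLN2, relaxin 2, fell by 2.25 and CARTPT by 1.46 on the log2 scale, each with a limma adjusted p under 0.05. CARTPT reached 1 RPKM only in normoxia and was tested through the groups where it is high. With Flag-OC2 in normoxia NPPC was higher (1.23, limma adjusted p = 0.0178) and NMU lower (-1.12, limma adjusted p = 0.109, with 0.480% of all genes lower), and no precursor was called in hypoxia. STC1 and APLN, like UCN2, were higher in hypoxia in both lines.

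Of the factors listed as possible regulators (ONECUT1, ONECUT2, ONECUT3, HIF1A, EPAS1, ARNT and SMAD3), only EPAS1 and ONECUT2 were called. EPAS1, which encodes HIF2α, was called higher in hypoxia with siCtrl (log2 fold change 1.02, SE 0.40, limma adjusted p = 0.611) and with empty vector (1.40, SE 0.30, limma adjusted p = 0.00910). Of all genes, 2.23% and 5.60% were called higher in those comparisons. ONECUT2 itself was called between siCtrl and siOC2 in normoxia (2.18, SE 0.65, limma adjusted p = 0.332), and it reached 1 RPKM in PC3 cells only in those siCtrl libraries, so it was tested through the group where it is high. None of the 6 tested in PC3 cells was called between siCtrl and siOC2 in hypoxia, where 3.95% of all genes were called higher and 3.55% lower. Their median log2 fold change was 0.71 beside 0.03 over all genes, and that of ONECUT2 was 1.39 (SE 0.65, limma adjusted p = 0.439). The paper reports that ONECUT2 raised SMAD3 in hypoxic PC3 cells by RNA-Seq, and that silencing ONECUT2 reduced SMAD3 RNA and protein. The SMAD3 values are not given here.

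The genes whose log2(RPKM + 0.1) ran most like UCN2 over the 8 PC3 libraries were ATL3 (Pearson r = 0.986), CDCA2 (0.985), KIAA0319L (0.978), NOX5 (0.978) and S100A2 (0.976). Their range differed: NOX5, an NADPH oxidase gene, was at 43.5 and 46.2 RPKM with siCtrl and 4.89 and 5.43 with siOC2 in normoxia, and at 183 and 146 against 7.64 and 11.6 in hypoxia, whereas ATL3 stayed between 15.6 and 33.0 RPKM. Over the 8 LNCaP libraries NNT (0.997), PTPN20A (0.988), HK1 (0.987) and NPR3 (0.984) were the most like UCN2, and PKIA (0.978), MUTYH (0.950), MED8 (0.948), ILKAP (0.939) and RPUSD4 (0.936) the most like UCN. These values describe 8 points in 4 groups that share libraries and depth, and carry no test.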

How the data were processed

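RNA-Seq was analysed in 16 libraries. The 12 ChIP-Seq samples of the series were not analysed here. The authors prepared stranded mRNA libraries, used STAR 2.4.2a and hg19 for the alignment of trimmed reads, and deposited RPKM per gene computed by Cufflinks 2.1.1 with a GENCODE annotation of GRCh37. Whether counting used strand is not given in the sources used here. RPKM are not counts, so log2(RPKM + 0.1) was fitted for genes that reached 1 RPKM in 2 or more libraries, per line with limma 3.58.1 (R 4.3.3), with 4 groups and a mean-variance trend. The scale understates changes of low genes. Calls needed more than a 2-fold change with an unadjusted P below 0.05 (2-sided). The Benjamini-Hochberg adjustment ran over every gene tested in a comparison. An exact test of 2 against 2 libraries gives at least 0.33.

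Relative depth came from the most common ratio of low RPKM between a library and 1 reference library of its table. Promoter letters were read from RefSeq and the genome. Members and gene lists were chosen with earlier results of these data known. Named are all CRF family genes and ONECUT2, list members that were called (at most 4 per list and comparison, the largest first, STC2 added after its values were seen), the 5 neighbours on each side that were called or adjoin, and the 5 genes most like each member, of which 1 is not reported here. Same-numbered libraries were checked for pairing by the correlation of deviations from group means. It exceeded 0.1 for siOC2 between oxygen levels (0.618, the same siRNA) and for empty vector and Flag-OC2 in hypoxia (0.275). It was negative and beyond 0.1 in size for siCtrl between oxygen levels (-0.186) and for siCtrl and siOC2 in normoxia (-0.107). No block was used in the main tests, so the PC3 differences of effect between oxygen levels treat siOC2 libraries of the same siRNA as independent. Alternatives were a pseudocount of 1, no filter or 5 RPKM, upper-quartile scaling, only the groups compared, the replicate number as a block, adjusted p for calls, and leaving out each library.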

Additional observations from a re-analysis of the deposited data

Results flagged for a closer look

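The effect of Flag-OC2 on UCN2 in LNCaP cells differed in sign between oxygen levels in every library: both Flag-OC2 libraries lay above both empty vector libraries in normoxia and below both in hypoxia. The difference of the effects was -1.22 on the log2(RPKM + 0.1) scale and was not tested. In normoxia the nearest libraries were only 0.353 and 0.348 RPKM, so the order there rests on very low values.

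The remaining flags are list genes whose ONECUT2 effect differed between hypoxia and normoxia by a limma interaction (difference over 1 on the log2 scale, unadjusted P under 0.05), and none passed after adjustment over all genes. In PC3 cells the effect of siCtrl over siOC2 was higher in hypoxia for ADM by 1.54 and STC1 by 1.62 (limma adjusted p = 1.0 each). In LNCaP cells the effect of Flag-OC2 was higher in hypoxia for CRHR1 by 2.26 (limma adjusted p = 0.172), PPARGC1A by 2.19 (0.119), RLN2 by 1.47 (0.127), PCSK1N by 1.13 (0.199), ADCY7 by 1.11 (0.273) and VGF by 1.10 (0.258). For PER1 it was lower by this measure, at -1.36 (limma adjusted p = 0.0575), with 57.8 and 56.7 RPKM with empty vector and 26.7 and 31.8 with Flag-OC2 in hypoxia against 11.8 and 16.1, then 18.1 and 17.9, in normoxia. Groups of 2 are too small to look for single libraries that stand apart.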

How the results depend on the processing

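UCN2 kept its direction in all 6 comparisons with a pseudocount of 1, upper-quartile scaling and without each library. Its groups did not overlap in any of the 6, so the pseudocount or a left-out library could not have reversed the direction. Flag-OC2 over empty vector in normoxia ran from 0.19 to 0.86 without single libraries. The pseudocount of 1 lowered its log2 differences to 1.60 and 3.47 (siCtrl over siOC2 in normoxia and hypoxia), 2.47 (hypoxia, PC3), 0.19 and -0.39 (Flag-OC2 in normoxia and hypoxia) and 0.86 (hypoxia, LNCaP). UCN in PC3 cells, at 0 to 6 read steps, gave log2 differences of 0.39, 0.24 and -1.19 (siCtrl over siOC2 in normoxia and hypoxia, then hypoxia over normoxia). The first and last became 0.10 and -0.24 with a pseudocount of 1. Without single libraries the second ran from -0.48 (without siCtrl replicate 1) to 0.97 (without siCtrl replicate 2). UCN in LNCaP cells was not called under any alternative that tested it, and its difference between oxygen levels ran from -0.059 to 0.39 without single libraries, with the negative value without empty vector replicate 2 in hypoxia. It does not reach 5 RPKM, so that filter gave no value. Counts of list genes called, in the order PC3 normoxia, PC3 hypoxia, PC3 hypoxia over normoxia, LNCaP normoxia, LNCaP hypoxia and LNCaP hypoxia over normoxia, were 11, 7, 6, 4, 5 and 14. With adjusted p they were 0, 0, 2, 1, 3 and 14. With a pseudocount of 1 they were 7 in PC3 normoxia and 2 in each LNCaP Flag-OC2 comparison. With 5 RPKM they were 7, 2, 0 and 8 in PC3 normoxia, LNCaP normoxia, LNCaP hypoxia and LNCaP hypoxia over normoxia, and with no filter 8 in LNCaP hypoxia. Without single libraries they ran from 6 to 15, 6 to 14, 5 to 7, 3 to 8, 3 to 6 and 14 to 15.

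Without the siRNA1 library of normoxia the count in PC3 normoxia was 6. Without the siRNA1 or the siRNA2 library of hypoxia that in PC3 hypoxia was 11 or 14. Without siCtrl replicate 1 in normoxia it was 7 there, without Flag-OC2 replicate 2 in normoxia 8, and without Flag-OC2 replicate 1 in hypoxia 3. The replicate block changed no UCN call. With the block 250 genes were called higher and 511 lower with siCtrl in normoxia, beside 194 and 442 without it, and with the numbers of siCtrl in normoxia crossed (chosen after seeing the data) 222 and 470. Read counts were not used, so the counting error of UCN2 in LNCaP cells is unknown.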
